A study of Mus musculus with 43 samples.

Results

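The enzymes that build glycerophospholipids and triglycerides were followed in a pooled CRISPR screen of metabolic genes in mouse CD8+ T cells that carry the OT-I receptor, which recognizes an ovalbumin peptide. Members were chosen by gene symbol, from glycerol 3-phosphate supply to the last steps of phospholipid and triglyceride synthesis, the lysophospholipid acyltransferases and the phospholipases D. The library held 52 such genes out of 2078, each with 5 sgRNAs (260 in all), beside 250 nontargeting sgRNAs. The screen was made in donor cells of OT-I:Rosa26-Cas9 mice, bred from Rag2/OT-I mice and mice with Cas9 knocked into Rosa26, in which Cas9 is expressed throughout the body. Transduced cells, marked by CD90.1, were given to Rosa26-Cas9 mice aged 6 to 12 weeks with an orthotopic KPC_OVA tumour, a PDAC line that expresses the ovalbumin peptide. Genomic DNA was sequenced at the integrated sgRNA, so that a value stands for the share of sorted cells that carried an sgRNA, and neither editing of the target gene nor cell type markers were measured.

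The reference, called T0, was the transduced cells on the day of transfer (3 libraries), and every comparison with T0 below shares these 3 libraries. All other libraries came from CD90.1+ cells sorted 7 days later from primary tumour, lung, liver, peritoneal metastases, spleen, draining lymph nodes or nondraining lymph nodes, under anti-PD-1 or control IgG. Values existed for 41 of 43 samples, which left 1 library of liver anti-PD-1, 2 of liver IgG, 2 of peritoneal metastases IgG and 3 of every other group. The title of replicate 2 of anti-PD-1 peritoneal metastases disagrees with its tissue label, which reads spleen, and the title was followed. Without this library the count of members lower than T0 was the same. The read depth is unknown, since the deposited values are normalized and batch corrected. The lowest value of an sgRNA was its minimum among the libraries of a replicate number, counted where more than a single library shared it. The share of the members' sgRNA values at this lowest value was 0% in T0, 9.23% to 39.2% per lung library, 41.9% to 90% per lymph node library and 1.54% to 20.8% per library of the other 4 organs. For this reason the main fit held T0 and the 26 libraries of the 10 groups outside lymph nodes, and lymph nodes are given at the end.

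Glycerophospholipids are assembled from glycerol 3-phosphate, which is acylated to phosphatidate. Phosphatidate is then split between diacylglycerol, the precursor of triglyceride, phosphatidylcholine and phosphatidylethanolamine, and CDP-diacylglycerol, the precursor of phosphatidylinositol, phosphatidylglycerol and cardiolipin. Phosphatidylethanolamine is made by the CDP-ethanolamine branch of the endoplasmic reticulum and by decarboxylation of phosphatidylserine in mitochondria. Activated T cells divide quickly and have to make membrane for every new cell.

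A gene value is the mean over its 5 sgRNAs of log2(signal + 1), from which the library's own nontargeting median was subtracted, so that 0 is the level of a typical nontargeting sgRNA. A change is the difference from T0 on this log2 scale, and a member was called when its adjusted p (limma, Benjamini-Hochberg over 2078 genes) was at most 0.05. In the mean of the 10 groups, 7 of 52 members (13.5%) were lower than T0 against 17.7% of all genes, and 0 members were higher against 0.192% of all genes. The members called were *Cdipt*, *Pisd*, *Cds2*, *Pgs1*, *Pcyt2*, *Etnk1* and *Lpcat1*, and they sat in 5 of the 11 role lists. At an unadjusted p under 0.05 in limma, 10 members were lower and 0 higher, beside 455 and 4 of 2078 genes. The 3 beyond the call were *Chka*, *Crls1* and *Taz*. The lists with 0 calls below therefore have 0 at that level too, except where these are named. The median change of the members was -0.51 and that of all genes -0.55, and 24 of 52 members lay below the median of all genes. Between the quartiles of all genes (-0.96 and -0.28) lay 24 members, with 11 below and 17 above. With libraries of the same replicate number and treatment averaged to 1 value, an alternative added after seeing the data, 14 members were lower, the 7 above and *Crls1*, *Chka*, *Taz*, *Agpat4*, *Chpt1*, *Ptdss1* and *Chkb*, while 618 of 2078 genes were lower.

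**Figure D1:**
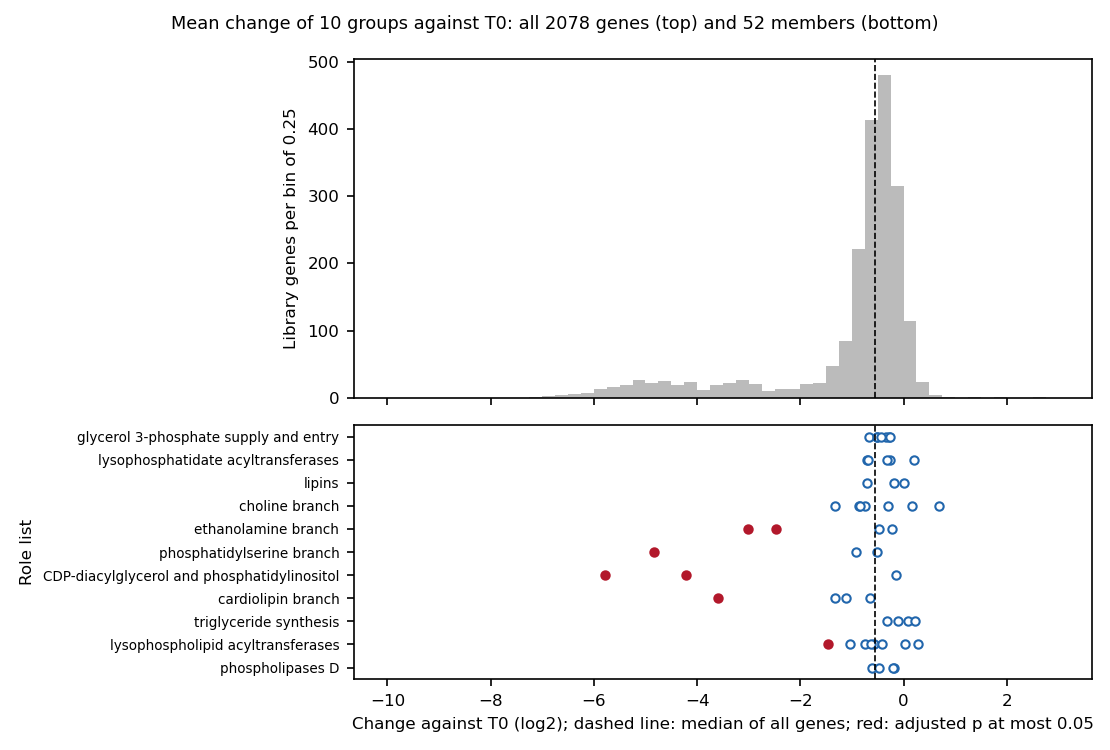
The upper panel counts library genes by their mean change of 10 groups against T0 (log2) and the lower panel shows each member as a point in the row of its role list, red where the adjusted p was at most 0.05. The 7 red members lie between -5.79 and -1.47, and the other 45 between -1.33 and 0.69 around the dashed median of all genes (-0.55).

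Over the 520 combinations of member and group, 78 were called lower and 1 higher. By group, 9.00% to 38.2% of all genes were called lower, as listed in the next paragraph. The 6 members *Cdipt*, *Pisd*, *Cds2*, *Pgs1*, *Pcyt2* and *Etnk1* accounted for 54 of these 78 calls, out of 60 possible. The remaining 24 calls came from the other 46 members, 21 of them in lung and 3 elsewhere. No group gave 0 calls, and 27 members were lower in no group. The share of all genes lower in no group, and the part of their calls that fell in lung, were not counted.

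The share of members lower was below that of all genes in every group except lung anti-PD-1 (28.8% of members). In liver IgG it was 7.69% of members, and these differences were not tested. Percentages in the counts that follow are of all genes. In primary tumour, 6 members were lower under IgG (13.8% of all genes) and 6 under anti-PD-1 (14.0%). Lung had 18 members lower under IgG (38.2% of all genes) and 15 under anti-PD-1 (27.3%), and 1 member, *Cept1*, higher under IgG (0.144%). In liver, 4 were lower under IgG (13.1%) and 3 under anti-PD-1 (9.00%). Peritoneal metastases had 7 under IgG (14.3%) and 6 under anti-PD-1 (16.1%), and spleen 6 under IgG (14.4%) and 7 under anti-PD-1 (15.6%). The larger counts in lung went with a median change of all genes of -1.42 under IgG and -1.07 under anti-PD-1, against -0.67 to -0.20 in the other 8 groups, and with the share of lowest values given above; their part in the calls was not tested. The count of lung anti-PD-1 was 7 or 8 without T0 replicate 1, 2 or 3 or lung anti-PD-1 replicate 2. That of peritoneal metastases IgG was 3 or 4 without either of its 2 libraries. The share of all genes lower was not counted with these libraries left out, so these shifts cannot be read as a trait of the members. With T0 and the compared group alone in the fit, the members lower numbered 10 in primary tumour IgG, 9 in lung IgG, 9 in liver IgG and 11 in peritoneal metastases IgG. In each of these groups 1 member was higher, but 0 in lung IgG. In the same order, 487, 527, 488 and 581 of 2078 genes were lower, and 9, 1, 10 and 7 higher. The single library of liver anti-PD-1 took its spread from T0 in such a fit, so its count is not given.

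**Figure D2:**
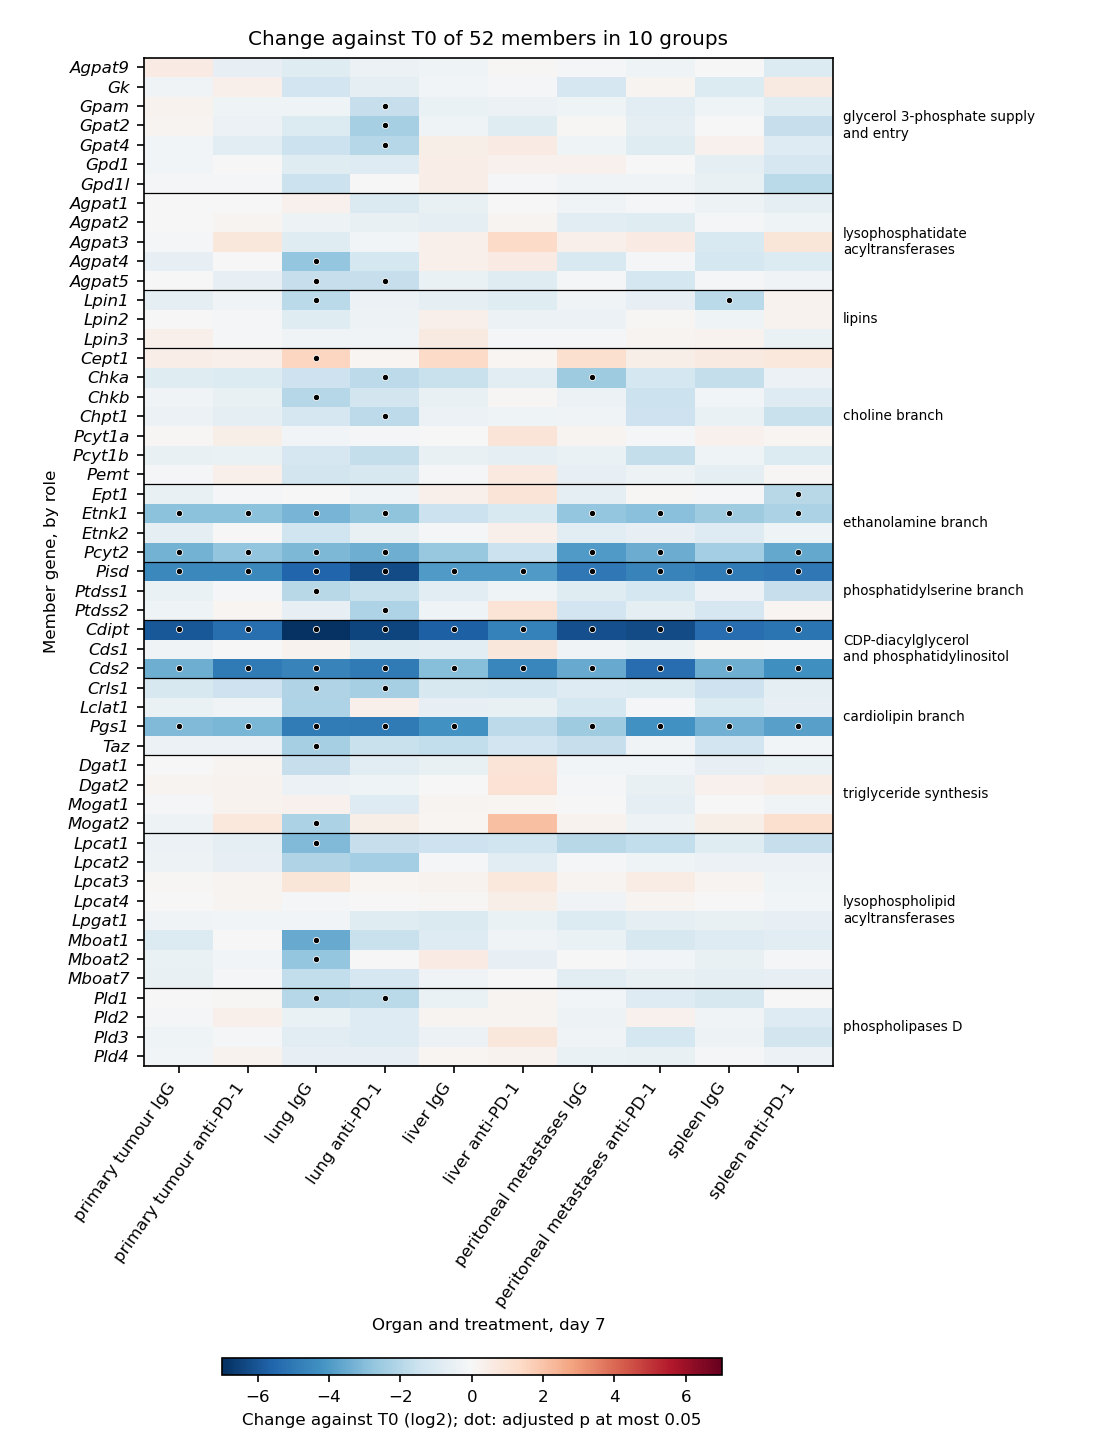
Each row is a member, grouped by role, and each column a group; colour gives the change against T0 (log2) and a dot marks an adjusted p of at most 0.05. *Pisd*, *Cdipt* and *Cds2* carry a dot in all 10 columns, and the single dots of other members lie mostly in the lung columns.

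Among the 7 genes of glycerol 3-phosphate supply and entry, 0 were called in the mean of 10 groups, with changes from -0.68 to -0.27 (median -0.43). *Gpd1* (-0.27) and its relative *Gpd1l* (-0.43) supply glycerol 3-phosphate from dihydroxyacetone phosphate, and *Gk* (-0.34) supplies it from glycerol. The acyltransferases that use it were measured as *Gpam* (-0.51) and *Gpat2* (-0.68) of mitochondria, and *Gpat4* (-0.52) and *Agpat9*, also called Gpat3 (-0.28), of the endoplasmic reticulum. *Gpam*, *Gpat2* and *Gpat4* were each called lower in lung anti-PD-1 and in no other group.

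The 5 lysophosphatidate acyltransferases, which add the next acyl chain, gave 0 calls in the mean of 10 groups, from *Agpat4* at -0.71 to *Agpat3* at 0.21. *Agpat4* was lower in lung IgG (-2.72, limma adjusted p = 0.000151), and in the mean of 10 groups with averaged libraries (-0.87, limma adjusted p = 0.026). *Agpat5* was lower in lung IgG (-1.60, adjusted p = 0.031) and lung anti-PD-1 (-1.61, adjusted p = 0.038), by limma. Its values were 0.26, 0.50 and 0.50 in T0 and ran from -2.23 to 1.34 (median -0.12) in the 26 libraries, 19 of which lay below all T0 libraries.

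Of the 3 lipins, the phosphatidate phosphatases that make diacylglycerol, 0 passed in the mean. *Lpin1* stood at -0.72, *Lpin2* at -0.18 and *Lpin3* at 0.00. *Lpin1* was called lower in lung IgG (-1.86, limma adjusted p = 0.023) and spleen IgG (-1.88, limma adjusted p = 0.046), and its change was 0.25 in spleen anti-PD-1. In T0 it read -0.11, -0.07 and 0.04, and it ranged from -3.18 to 0.73 (median -0.56) in the 26 libraries, so the groups overlapped.

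In the choline branch, which makes phosphatidylcholine, 0 of 7 members passed in the mean of 10 groups. *Chka*, a choline kinase, came nearest: its T0 values of -0.25, 0.15 and 0.22 compare with -3.55 to 0.73 (median -1.18) in the 26 libraries, 25 of them below all T0 libraries. The mean change of *Chka* was -1.32 (SE 0.50, limma adjusted p = 0.067), and it passed in lung anti-PD-1 (-1.84, adjusted p = 0.037) and in peritoneal metastases IgG (-2.51, adjusted p = 0.016). With averaged libraries, 3 of the 7 passed in the mean, *Chka* (-1.25, limma adjusted p = 0.0066), *Chpt1* (-1.02, limma adjusted p = 0.041) and *Chkb* (-0.85, limma adjusted p = 0.045). *Chkb*, the other kinase, was at -0.75 and passed in lung IgG alone. *Pcyt1a* and *Pcyt1b*, which form CDP-choline in the regulated step of this branch, were at 0.16 and -0.84 and passed in no group. *Chpt1*, a cholinephosphotransferase, was at -0.86 and passed in lung anti-PD-1, and *Pemt*, which methylates phosphatidylethanolamine, was at -0.30. Of the 5 sgRNAs of *Chpt1*, 1 had a T0 signal of only 5.97 to 7.45 and was at the lowest value in 22 of the 26 libraries.

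*Cept1*, which joins either choline or ethanolamine to diacylglycerol, had the highest mean change of the 52 members. It read -0.02, 0.16 and 0.27 in T0, and -0.89 to 1.95 (median 0.76) in the 26 libraries. Of these, 19 lay above all T0 libraries and 3 below them. The mean change was 0.69 (SE 0.44, 95% interval -0.22 to 1.59, limma adjusted p = 0.42), and the gene passed the threshold in lung IgG, where the 3 libraries read 1.95, 1.80 and 1.18 (change 1.5, limma adjusted p = 0.044). This call was lost in 15 of 39 alternatives, among them each T0 replicate left out (limma adjusted p = 0.083 to 0.11), lung IgG replicate 1 or 2 left out (limma adjusted p = 0.13 and 0.085) and T0 and lung IgG alone (limma adjusted p = 0.0502). Over all 39 the change ranged from 0.76 to 2.69. All 5 sgRNAs of *Cept1* had a change above 0, from 0.37 to 1.28, and 2 of them lay above the 95th percentile of the nontargeting sgRNAs (0.59).

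*Cept1* is among the 3 members that the study carried into its later, smaller library, with *Mogat2* and *Lpin3* (3 spacers each). The paper filled that library with genes that both MAGeCK and STARS, algorithms for screens, called enriched in some organ and treatment. Those are other tests than the limma fit here, in which *Mogat2* and *Lpin3* were called higher in none of the 10 groups. The sequences of the 5 sgRNAs measured here were not used, so the later designed spacers of *Cept1* are shown only to place the gene; none of their values enters here. Each is given 5′ to 3′ with its PAM, the bases that Cas9 needs beside the target, in capitals:
Cept1 spacer 1: gagatttggggcaatccatgAGG
Cept1 spacer 2: taaaacggctagaagaacacAGG
Cept1 spacer 3: caggcaatataagcccacagAGG
On GRCm38, *Cept1* lies on the minus strand of chromosome 3 from 106502260 to 106547802 (GENCODE vM21). Spacer 1 matches chr3:106539268-106539287 on the plus strand and spacer 2 chr3:106539367-106539386 on the minus strand, both cutting in coding exon 2 of Cept1-201. Spacer 3 matches chr3:106533477-106533496 on the plus strand and cuts in coding exon 3.

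The ethanolamine branch, which runs in parallel to phosphatidylethanolamine, had 2 of 4 members lower in the mean of 10 groups. *Etnk1*, the kinase of its entry step, read 0.26, 0.50 and 0.70 in T0. In the 26 libraries it ranged from -5.24 to -0.45 (median -1.99), all of them below T0. The mean change was -2.47 (SE 0.52, 95% interval -3.54 to -1.40, limma adjusted p = 0.00038), that is 5.54-fold lower, and 8 of 10 groups passed. The exceptions were liver IgG (-1.51) and liver anti-PD-1 (-1.08). With the median of the sgRNAs the mean change was -1.93 and did not pass (limma adjusted p = 0.15).

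*Pcyt2*, which then forms CDP-ethanolamine, started low: T0 values were -1.32, -1.16 and -0.46, and 1 of its 5 sgRNAs had a T0 signal of only 4.80 to 8.22. The 26 libraries read -7.28 to -2.14 (median -3.90), with no overlap. Its mean change was -3.02 (SE 0.63, 95% interval -4.30 to -1.73, limma adjusted p = 0.00029), or 8.10-fold lower, and 7 of 10 groups passed. Liver IgG (-2.67, limma adjusted p = 0.057), liver anti-PD-1 (-1.49) and spleen IgG (-2.40, limma adjusted p = 0.0503) did not. Without the lowest 10% of sgRNAs the mean change was -3.07 with a larger error (SE 1.13, limma adjusted p = 0.099). These sgRNAs were ranked by their mean signal over all 41 libraries, not in T0. An sgRNA that fell after T0 was therefore removed more readily. *Ept1*, also called Selenoi, the transferase of the last step, was at -0.23 and passed in spleen anti-PD-1 alone (-1.93), and *Etnk2*, the second ethanolamine kinase, was at -0.48 and passed nowhere.

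The phosphatidylserine branch had 1 of 3 members lower. *Pisd*, the mitochondrial decarboxylase that turns phosphatidylserine into phosphatidylethanolamine, read -0.66, -0.41 and 0.37 in T0 and -7.38 to -3.33 (median -5.27) in the 26 libraries. Every one of the 26 lay below all T0 libraries. The mean change was -4.84 (SE 0.49, 95% interval -5.85 to -3.83, limma adjusted p = 1.78e-09), a 28.7-fold lower level, and it passed in 10 of 10 groups, from -6.27 in lung anti-PD-1 to -3.97 in liver IgG. The phosphatidylserine synthases were called in lung only: *Ptdss1*, which uses phosphatidylcholine, was at -0.92 in the mean and passed in lung IgG, and *Ptdss2*, which uses phosphatidylethanolamine, was at -0.52 and passed in lung anti-PD-1. *Ptdss1* lay below all T0 libraries in 24 of 26 libraries, and with averaged libraries it passed in the mean (-1.02, limma adjusted p = 0.041).

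The branch through CDP-diacylglycerol to phosphatidylinositol held the lowest member. *Cdipt*, which makes phosphatidylinositol, the parent of the phosphoinositides used in T cell receptor signalling, read -0.28, 0.08 and 0.88 in T0. In primary tumour it read -4.68, -5.75 and -6.65 under IgG and -4.94, -5.08 and -5.15 under anti-PD-1. In lung it read -7.04, -7.18 and -5.80 under IgG and -6.49, -6.29 and -5.87 under anti-PD-1. No library of the 10 groups came above -3.90. The mean change was -5.79 (SE 0.47, 95% interval -6.76 to -4.82, limma adjusted p = 2.71e-11), or 55.2-fold lower, and 10 of 10 groups passed, from -6.90 in lung IgG to -4.75 in liver anti-PD-1. Ranked from the lowest change, *Cdipt* was number 34 of 2078 genes and *Pisd* number 109.

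*Cds2*, a CDP-diacylglycerol synthase, read 0.15, 0.18 and 0.26 in T0 and -6.69 to -1.60 (median -3.98) in the 26 libraries. Its mean change was -4.22 (SE 0.68, 95% interval -5.61 to -2.83, limma adjusted p = 7.22e-06), or 18.6-fold lower, with 10 of 10 groups passed. Its paralogue *Cds1* read 0.40, 0.42 and 0.47 in T0 and -0.84 to 1.25 (median 0.33) in the 26 libraries, with a mean change of -0.15 (SE 0.38) that turned positive under 3 alternatives, and it passed in no group. The libraries thus overlapped T0 for *Cds1* and did not for *Cds2*.

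In the cardiolipin branch, which builds the signature lipid of the inner mitochondrial membrane, 1 of 4 members was lower. *Pgs1*, which makes phosphatidylglycerophosphate, read -0.34, -0.19 and -0.15 in T0 and -6.09 to -2.04 (median -3.64) in the 26 libraries. The mean change was -3.60 (SE 0.53, 95% interval -4.68 to -2.53, limma adjusted p = 1.51e-06), or 12.1-fold lower, and 9 of 10 groups passed, the exception being liver anti-PD-1 with its 1 library (-1.82). *Crls1*, cardiolipin synthase, was at -1.33 (SE 0.53, limma adjusted p = 0.090) and passed in lung IgG (-2.09) and lung anti-PD-1 (-2.34). It lay below all T0 libraries in 24 of 26. *Taz*, the tafazzin that remodels cardiolipin, was at -1.12 (limma adjusted p = 0.12) and passed in lung IgG (-2.34), and *Lclat1*, a lysocardiolipin acyltransferase, was at -0.65 and passed nowhere. With averaged libraries *Crls1* (-1.40, limma adjusted p = 0.0018) and *Taz* (-1.04, limma adjusted p = 0.012) passed in the mean.

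**Figure D3:**
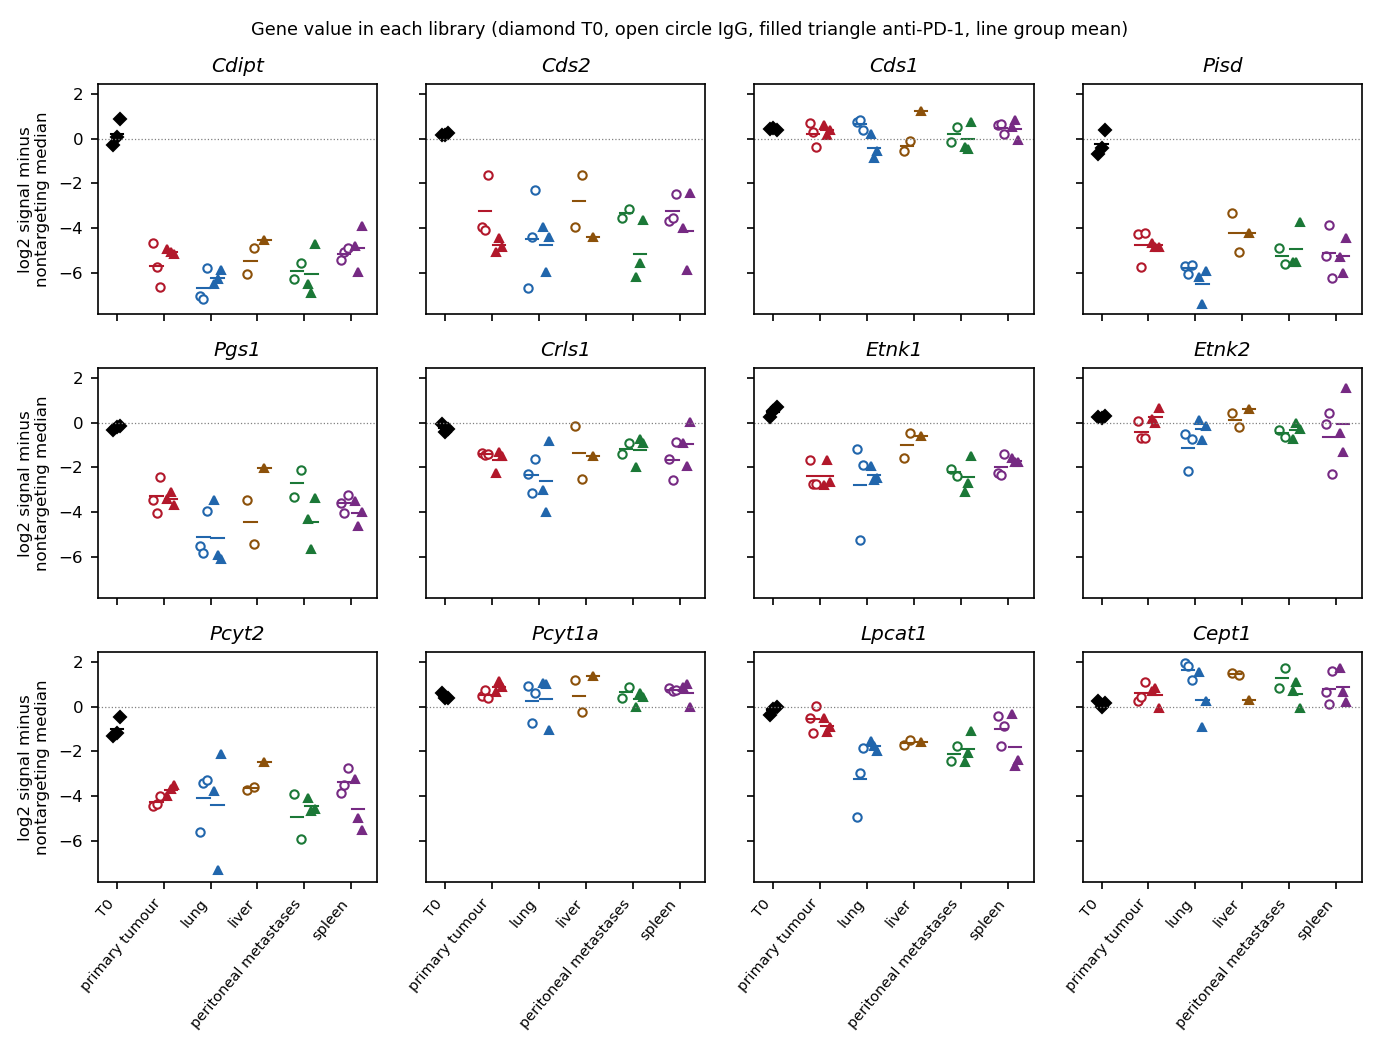
Gene value in each library (log2 signal minus the nontargeting median of the library) for 12 members, with T0 as black diamonds, IgG as open circles, anti-PD-1 as filled triangles and group means as lines. *Cdipt*, *Cds2*, *Pisd*, *Pgs1*, *Etnk1* and *Pcyt2* lie below every T0 point in 26 of 26 libraries, *Cds1*, *Etnk2* and *Pcyt1a* overlap T0, and *Cept1* lies above T0 in 19.

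Triglyceride synthesis gave 0 calls among 4 members in the mean of 10 groups, with a median change of -0.01. The diacylglycerol acyltransferases *Dgat1* and *Dgat2*, which make triglyceride, were at -0.32 and 0.08, and the monoacylglycerol acyltransferases *Mogat1* and *Mogat2* at -0.10 and 0.22. *Mogat2* changes ranged by group from -2.23 in lung IgG (limma adjusted p = 0.033) to 2.12 in the 1 library of liver anti-PD-1 (limma adjusted p = 0.47). It read -0.16, 0.26 and 0.39 in T0, -3.41, -2.89 and 0.11 in lung IgG, and 0.43, -1.23 and 2.49 in lung anti-PD-1. Lung IgG replicate 3 thus lay near T0 and the other two far below it, and the lung anti-PD-1 libraries lay on both sides of T0.

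The later designed spacers of *Mogat2*, shown for the same reason as those of *Cept1* and again with the PAM in capitals, are:
Mogat2 spacer 1: cccttcccggaactacatcgCGG
Mogat2 spacer 2: gcgcaggttacagaccttcgCGG
Mogat2 spacer 3: gatgtaatctcggaagaaggGGG
*Mogat2* lies on the minus strand of chromosome 7 from 99219084 to 99238619 (GRCm38). Spacer 1 matches chr7:99223663-99223682 on the minus strand and spacer 3 chr7:99223511-99223530 on the plus strand, both in coding exon 3 of Mogat2-201. Spacer 2 matches chr7:99238511-99238530 on the minus strand, in coding exon 1.

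Of the 8 lysophospholipid acyltransferases, which exchange acyl chains on finished phospholipids, 1 passed. *Lpcat1*, which acylates lysophosphatidylcholine, read -0.39, -0.10 and -0.02 in T0 and -4.93 to 0.02 (median -1.66) in the 26 libraries, 24 of them below all T0 libraries. Its mean change was -1.47 (SE 0.49, 95% interval -2.48 to -0.46, limma adjusted p = 0.033), or 2.78-fold lower, and 1 group passed by itself, lung IgG (-3.08). The call was lost in 9 of 40 alternatives. Without T0 replicate 1, 2 or 3 the change was -1.58, -1.44 and -1.40 (limma adjusted p = 0.088, 0.15 and 0.17). It was -0.83 with the median of the sgRNAs (limma adjusted p = 0.95), and -1.09 and -1.06 with centring on all sgRNAs and on the nontargeting mean (limma adjusted p = 0.18 and 0.0999). With the lowest 10% of sgRNAs left out, all 41 libraries or shared lowest values at 0, the adjusted p was 0.061, 0.31 and 0.056 by limma. *Lpcat3*, which favours polyunsaturated acyl chains, was at 0.29, *Lpcat4* at 0.03, *Lpcat2* at -0.75, *Lpgat1* at -0.58 and *Mboat7*, which acylates lysophosphatidylinositol, at -0.63, and none of these passed in any group. *Mboat2*, at -0.41, passed in lung IgG (-2.71). *Mboat1* was at -1.04 and passed in lung IgG (-3.52), where 1 library reached -6.50.

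The 4 phospholipases D gave 0 calls in the mean of 10 groups. *Pld1* and *Pld2*, which release phosphatidate and choline from phosphatidylcholine, were at -0.62 and -0.19. *Pld1* passed in lung IgG (-2.0, limma adjusted p = 0.026) and lung anti-PD-1 (-1.86, limma adjusted p = 0.049). The lysosomal family members *Pld3* and *Pld4* were at -0.48 and -0.21 and passed nowhere.

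The 5 sgRNAs of a member were compared with the nontargeting sgRNAs, whose changes had a 5th percentile of -1.70, a median of -0.33 and a 95th percentile of 0.59. Of the members' 260 sgRNAs, 43 (16.5%) lay below this 5th percentile, against 19.6% of all gene sgRNAs. *Cdipt*, *Pisd*, *Cds2*, *Pgs1* and *Pcyt2* had 5 of 5 sgRNAs below it and *Etnk1* 4 of 5, so that 6 members (11.5%) had at least 4, against 14.5% of all genes. *Cdipt* ran from -7.29 to -3.77, *Pisd* from -6.23 to -4.34 and *Cds2* from -6.45 to -2.50. *Lpcat1* had 1 of 5 below, *Chka* and *Crls1* 2 of 5 each, and 34 members had 0. Lowest values made up 60% of the signals of *Cdipt* in the 26 libraries, 45.4% for *Cds2*, 44.6% for *Pisd*, 37.7% for *Pcyt2*, 34.6% for *Pgs1* and 14.6% for *Etnk1*. The changes of the lowest members are therefore limited by the lowest values of their sgRNAs.

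**Figure D4:**
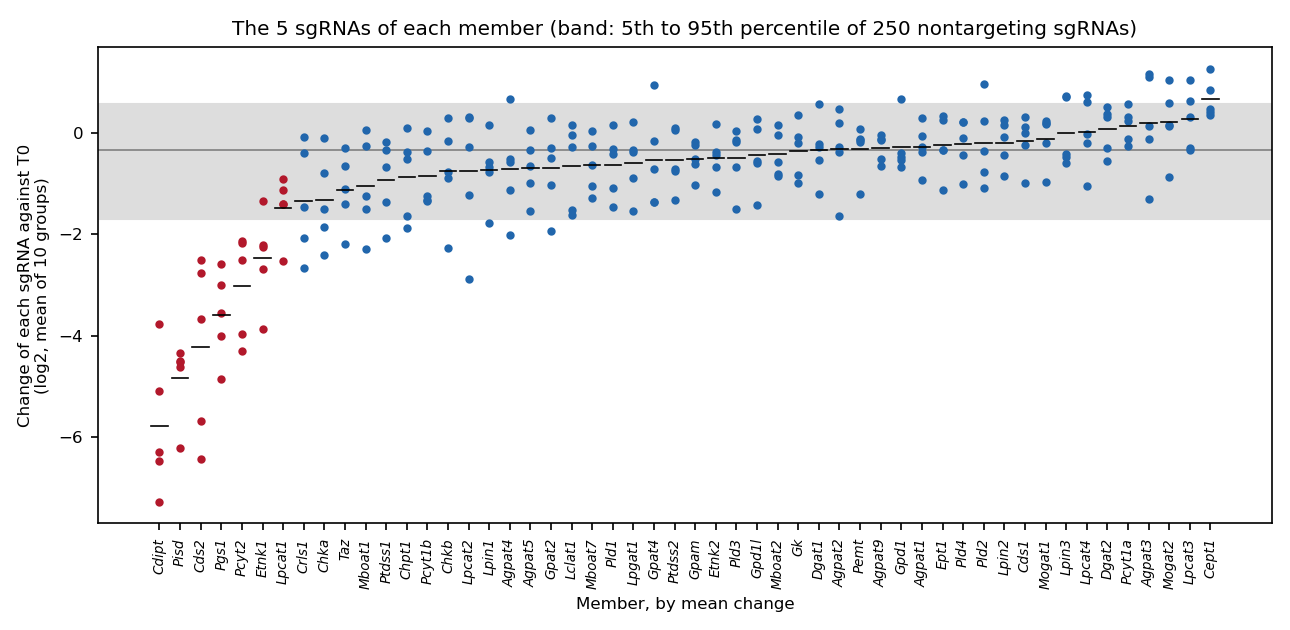
Each point is the change of an sgRNA against T0 (log2, mean of 10 groups), each short line the mean of a member's 5 sgRNAs, and the grey band the 5th to 95th percentile of 250 nontargeting sgRNAs (-1.70 to 0.59). The sgRNAs of the 6 lowest members lie below the band except for 1 of *Etnk1*, and those of the other members lie mostly within it.

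Related members were compared directly in 11 pairs by the difference of their values within a library, 26 libraries against 3 T0 libraries, with a two-sided exact permutation test over 3654 arrangements (smallest possible p = 0.000274) and adjustment over the 11 pairs. The libraries of a replicate number may share mice, which this test does not take into account. *Cds2* minus *Cds1* was -0.29 to -0.14 in T0 and -7.43 to -1.21 in the 26 libraries, a shift of -4.07 in 26 of 26 (exact permutation p = 0.000274, adjusted 0.0030). *Pcyt2* fell relative to both enzymes of the same step in the choline branch, by 3.22 against *Pcyt1a* (exact permutation p = 0.00082, adjusted 0.0045) and by 2.23 against *Pcyt1b* (exact permutation p = 0.010, adjusted 0.028). *Etnk1* fell by 2.05 relative to *Etnk2*, below all T0 libraries in 25 of 26 (exact permutation p = 0.0019, adjusted 0.0070). The members of these pairs that passed in the mean of 10 groups were known before the pairs were compared.

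The other 7 pairs did not pass. The shift was -1.72 for *Lpcat1* minus *Lpcat3* (exact permutation p = 0.028, adjusted 0.051), -1.47 for *Lpcat1* minus *Lpcat4* (adjusted 0.058) and -0.66 for *Lpcat1* minus *Lpcat2* (adjusted 0.44). *Chpt1* minus *Cept1* shifted by -1.62 (exact permutation p = 0.026, adjusted 0.051) and *Ept1* minus *Cept1* by -1.01 (adjusted 0.20). *Chka* minus *Chkb* and *Ptdss1* minus *Ptdss2* shifted by -0.48 and -0.37 (both adjusted 0.57), and their 26 libraries lay on both sides of T0.

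**Figure D5:**
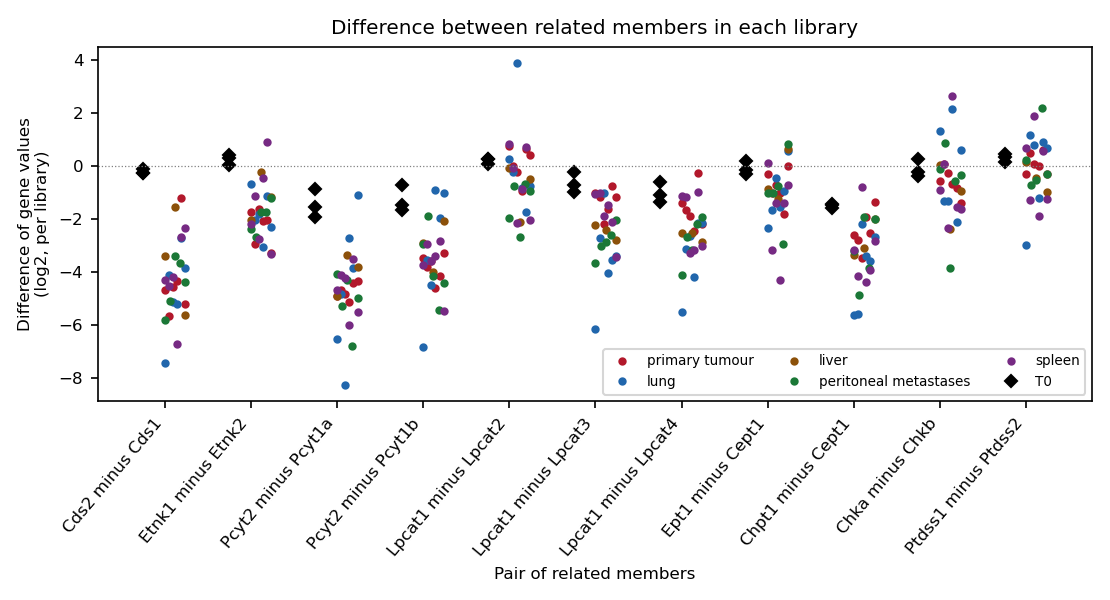
Difference between the values of related members in each library (log2), with T0 as black diamonds and the 26 other libraries as points coloured by organ. *Cds2* minus *Cds1* lies below T0 in 26 of 26 libraries, whereas *Chka* minus *Chkb* and *Ptdss1* minus *Ptdss2* scatter around T0.

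Whether a change differed between the 5 organs was tested by a moderated F-test. The values had already been corrected with ComBat for batch effects between organs, with settings not given. Differences between organs may thus have been altered before the test. The F-test called 1 member, *Agpat4*, against 3.71% of all genes. It gave 16 members an unadjusted p under 0.05, and the share of all genes at that level was not counted. *Agpat4* read -0.47, -0.36 and -0.20 in T0, -3.11, -3.81 and -2.26 in lung IgG, and -1.29, -2.19 and -1.27 in lung anti-PD-1. In liver it read -0.16 and 0.18 under IgG and 0.22 under anti-PD-1, so lung lay below T0 in 6 of 6 libraries and liver above it (F-test adjusted p = 0.014, limma). Spleen also lay below all T0 libraries in 6 of 6, with -2.0, -1.37 and -1.38 under IgG and -0.89, -0.96 and -2.03 under anti-PD-1. Without lung the F-test called 0 members, and without lung IgG replicate 3 it called 14, so the count rests on the lung libraries. The share of all genes called without these libraries was not counted. For the members called in the mean, the F-test gave adjusted p = 0.13 for *Cdipt*, 0.13 for *Pisd*, 0.73 for *Cds2*, 0.093 for *Pgs1*, 0.55 for *Pcyt2*, 0.26 for *Etnk1* and 0.095 for *Lpcat1* (limma), which does not show that their changes were equal.

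Anti-PD-1 and IgG were compared within each organ and in the mean of the 5 organs. In the mean, 0 members passed, against 0.481% of all genes, and 9 members (17.3%) had an unadjusted p under 0.05 in limma, 6 of them higher under anti-PD-1, beside 275 of all genes (13.2%), 177 of them higher. The smallest p belonged to *Agpat3*, at 0.93 (SE 0.27, 95% interval 0.38 to 1.48, limma adjusted p = 0.10). *Mogat2* followed at 1.17 (SE 0.42, limma adjusted p = 0.21), and *Cds2* was lower under anti-PD-1 by -1.22 (SE 0.46, limma adjusted p = 0.24). In lung, 1 member passed, *Mboat2*, a lysophospholipid acyltransferase, against 1.68% of all genes. Its lung values were -4.80, -0.91 and -0.90 under IgG and 1.20, 0.87 and -0.40 under anti-PD-1, beside 0.69, 0.40 and 0.44 in T0. The difference was 2.76 (SE 0.69, limma adjusted p = 0.033), and without lung IgG replicate 1, the library at -4.80, it was 1.46 (limma adjusted p = 0.16). Leaving out lung IgG replicate 3 raised the count in lung to 6 members, with the share of all genes not counted. In the other 4 organs 0 members passed by limma, and 0 of all genes. At an unadjusted p under 0.05 were 0 members in primary tumour, 2 in liver, 1 in peritoneal metastases and 4 in spleen. In the same order, 9, 56, 74 and 124 of all genes were at this level. In the mean of the 5 organs the count of members that passed became 1 without lung anti-PD-1 replicate 2 or lung IgG replicate 3.

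More than 50% of the members' sgRNAs were at the lowest value in 9 of 12 lymph node libraries, and the nontargeting median used for centring lay at a signal of at most 1.39. Relative to that median, 21 members were higher than T0 in draining lymph nodes IgG (35.0% of all genes), 21 in draining anti-PD-1 (28.2%), 0 in nondraining IgG (6.74%) and 8 in nondraining anti-PD-1 (8.95%), in a limma fit of all 41 libraries. In nondraining IgG, 15 members had an unadjusted p under 0.05 in limma, all of them higher, beside 549 of all genes, also all higher. No member was lower in any of the 4 groups by limma, and 0 at an unadjusted p under 0.05 (0% of all genes called lower). On the values as deposited, without centring, the direction was the opposite: 0 calls higher and 208 lower, which is every member in every lymph node group. The share of all genes called in that setting was not counted. Of all sgRNAs, 45.4% (draining IgG replicate 3) to 91.6% (nondraining anti-PD-1 replicate 1) were at the lowest value in a lymph node library. The 208 calls therefore cannot be read as a trait of the members. No direction can therefore be read for the members in lymph nodes.

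Genes next to these pathways were counted from lists chosen with earlier results known. Of 10 measured genes in a list drawn up for acyl chain and choline supply, 3 were lower in the mean of 10 groups, where 17.7% of all genes were. These were *Acaca*, acetyl-CoA carboxylase (-2.02, SE 0.56, limma adjusted p = 0.0074), *Scd1*, stearoyl-CoA desaturase (-1.96, SE 0.62, limma adjusted p = 0.020), and *Fasn*, fatty acid synthase (-1.38, SE 0.46, limma adjusted p = 0.034). The 5 acyl-CoA synthetases of the list ran from -1.52 (*Acsl4*) to 0.42 (*Acsl5*), and none passed in the mean. The list also held *Gpd2*, a glycerol 3-phosphate dehydrogenase that supplies neither acyl chains nor choline (-0.62), which did not pass. Of 8 measured genes of lipid breakdown, among them the triglyceride lipase *Pnpla2* (-0.38), 0 passed, with a median change of -0.39.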

How the data were processed

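The deposited values are a signal per sgRNA and library: the authors obtained read counts with MAGeCK, scaled each library by its 250 nontargeting sgRNAs and applied ComBat against differences between organs, whose settings are not given in the sources used here. The signal is no longer a whole count, so depth is unknown and no counting interval is given. Samples were grouped by their labels. Of 43 samples, 2 had no values. log2(signal + 1) was averaged over 5 sgRNAs, centred on the nontargeting median of the library and fitted with limma 3.58.1 in R 4.3.3 (1 mean per group, 29 libraries, 11 groups, prior degrees of freedom 12.6, prior variance 0.67). limma was also used for the lymph nodes, with all 41 libraries. The adjusted p (Benjamini-Hochberg, 2078 genes) had to be at most 0.05. Labels call the replicates biological, but libraries of different organs may share mice. The lone liver anti-PD-1 library is assumed to vary like the other groups. Members named in full are those called in the mean of 10 groups or in 2 or more groups, then the 3 lowest and the 3 highest of the rest, with their paralogues; others are given in short. The symbol rule found 52 members, and the files use older symbols for some (Agpat9, Ept1). Members, lists and tests were chosen with earlier results of these data known. Alternatives were a pseudocount of 10, the median of the sgRNAs, other centrings or none, a replicate block and all libraries. Others were only the groups compared, shared lowest values at 0 and each library left out. In a further alternative the 10% of sgRNAs with the lowest mean signal over all libraries were left out. After seeing the data, lung left out and averaging by replicate number and treatment were added. The fit was tested on simulated data with independent normal noise, without shared lowest values and without libraries that deviate together. That test therefore cannot show the error rate on the data used here. Spacers of the later library were matched exactly to GRCm38 beside an NGG PAM and placed with GENCODE vM21. Figures were drawn with matplotlib 3.10.9 in Python 3.11.15.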

Additional observations from a re-analysis of the deposited data

Results flagged for a closer look

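*Agpat4* differed between the 5 organs by the F-test (limma adjusted p = 0.014), with its lowest value in lung IgG (-2.72 against T0) and changes of 0.35 and 0.56 in liver. The F-test used values that ComBat had already corrected for organ. The adjusted p of this test was 0.19 with a pseudocount of 10, 0.23 with the median of the sgRNAs, 0.48 with centring on the nontargeting mean, 0.96 with all 41 libraries and 0.27 without lung. *Mboat2* differed between anti-PD-1 and IgG in lung by 2.76 (limma adjusted p = 0.033). This difference was 1.46 without lung IgG replicate 1 (limma adjusted p = 0.16), and it did not pass without lung anti-PD-1 replicate 1 or 2 (2.44 and 2.60), with the median of the sgRNAs (2.77, limma adjusted p = 0.17) or with all 41 libraries (limma adjusted p = 0.93). No group had 4 or more libraries, so no search for outlying libraries within a group was made.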

How the results depend on the processing

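The count of members lower in the mean of 10 groups (7) was 15 on the values as deposited, 3 without the lowest 10% of sgRNAs, where *Cdipt* and *Pisd* could not be tested, 14 with libraries of the same replicate number and treatment averaged, and 6 to 9 with each library left out; 0 members were higher in any of these settings. All library genes lower numbered 368, with 671 on the values as deposited, 618 after averaging and 244 with the median of the sgRNAs. They numbered 209 without the lowest sgRNAs and 318 to 388 with each library left out. The lowest sgRNAs were chosen by mean signal over all 41 libraries, so a fall after T0 itself favoured their removal. Calls lost in that setting therefore do not show that a change was absent. *Cds2* and *Pgs1* passed in 40 of 40 settings and *Cdipt* and *Pisd* in 39 of 39. *Pcyt2* did not pass without the lowest 10% of sgRNAs (-3.07, adjusted p = 0.099), *Etnk1* with the median of the sgRNAs (-1.93, adjusted p = 0.15), and *Lpcat1* in 9 of 40 settings. The calls over 10 groups (78) were 28 with the median of the sgRNAs, 125 on the values as deposited and 21 without the lowest 10% of sgRNAs. They were 48 with all 41 libraries and 57 to 92 with each library left out. The share of all genes called by group was not counted in these settings. Members differing between organs (1) numbered 0 with a pseudocount of 10, the median of the sgRNAs, centring on the nontargeting mean, all 41 libraries or lung left out, 7 on the values as deposited, and 1 to 14 with each library left out, the 14 without lung IgG replicate 3. Members differing by treatment in lung (1) were 3 with the median of the sgRNAs, 2 on the values as deposited, 0 with all 41 libraries and 0 to 6 with each library left out. In the mean of 5 organs (0) they were 0 to 1. The share of all genes was not counted for these alternatives of organs and treatment. Lymph node calls higher (50) were 0 on the values as deposited and 20 to 65 with each library left out. Calls lower (0) were 208 as deposited, where the share of all genes was not counted, and 0 with each library left out. Values near 0 changed sign: *Cds1* to 0.15 (median of the sgRNAs), 0.24 (centring on all sgRNAs) and 0.26 (nontargeting mean), *Ept1* to 0.15 and 0.18 in the last 2, *Etnk2* to 0.0136 (median of the sgRNAs), *Lpcat3*, *Mogat2* and *Pcyt1a* to -0.30, -0.36 and -0.43 as deposited, and *Mogat2* to -0.0134 after averaging. The median change of all genes moved from -0.55 to -1.14 as deposited, -0.17 with centring on all sgRNAs and -0.14 with the nontargeting mean. The cause of these shifts was not tested.

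With the replicate block, 7 members were lower in the mean and 77 calls were made over 10 groups, and no count moved by over 1.5 times. With T0 included, correlations of deviations from group means ran from -0.36 to 0.27 in 118 same-number pairs (median -0.013, 39 over 0.1). Pairs of different numbers had a median of -0.0005. Without T0, libraries that shared number and treatment deviated together, with a median correlation of 0.17 in 41 pairs (34 over 0.1). The median was -0.08 in 80 pairs of the same treatment and another number (0 over 0.1). It was -0.06 in 52 pairs of the same number and the other treatment (lowest -0.15, 3 over 0.1). With T0 included, 21 of 28 libraries correlated best with a library of their own number. This is a hint from the data and not the design.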
